A study of Mus musculus with 20 samples.

Results

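The question was whether an odor changed which transcripts were enriched in recently active olfactory sensory neurons. For every gene, enrichment was taken as the log2 signal in GFP+ cells minus the log2 signal in GFP- cells of the same pool of mice, and the odor change as the mean enrichment of 5 odor pools minus that of 5 vehicle pools. All 20 of the 20 samples entered, as 10 such differences, and all 22206 of the 22206 gene probe sets on the array were tested, of which 1094 were chemosensory receptors. No measured value was used to choose them.

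The animals were 30 S100a5-tauGFP mice of both sexes, 7 to 12 weeks old, which carry a tauGFP reporter for the activity-dependent gene S100a5. They were housed singly for 40 h in chambers with clean air flowing at 3.1 L/min, and from 26 h onward received pulses of 10 s every 20 min, of filtered air for the vehicle group and of an artificial cigarette smoke odor for the odor group. The series' own design text names the odorant as bourgeonal, whereas the labels of the individual samples name the smoke odor, and the sample labels are followed here. Olfactory mucosa of 3 mice was combined, dissociated and sorted into GFP+ and GFP- cells, which gave 4 groups of 5 samples (vehicle GFP+, vehicle GFP-, odor GFP+, odor GFP-), each hybridised to 1 Clariom S array. As each sample is a pool, the spread between mice within a pool was not measured. GFP- cells are the remaining cells of the mucosa and include inactive neurons as well as other cell types, and in such bulk samples fewer cells of a type and less RNA per cell cannot be told apart.

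Each mature olfactory sensory neuron transcribes 1 odorant receptor gene out of the large Olfr family, and a smaller set of neurons uses a trace amine-associated receptor (Taar). Binding of an odorant opens a cyclic nucleotide-gated channel through the G protein Golf and adenylyl cyclase, and repeated activity raises S100a5, a calcium-binding protein of the cytoplasm. A receptor whose neurons respond to the odor would have more of its mRNA in the GFP+ fraction when the odor is present.

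Omp, the marker of mature olfactory sensory neurons, was bright in both fractions, with signals from 18.10 to 19.65 over the 20 arrays against background control medians of 5.14 to 6.34. These signals lay near the top of the range, as the highest signal of an array was 18.49 to 19.86. The 4 arrays numbered 5, 1 in each group, had median gene signals of 7.03 to 7.46, and the other 16 arrays had 6.06 to 6.39. Vehicle pools 1 and 2 stood apart: the SD of their deviations from the vehicle mean over all probe sets was 1.16 and 0.98, where the other 8 pools had 0.39 to 0.60. The spread between vehicle pools exceeded that between odor pools in 78.3% of probe sets, with a median SD of 0.70 against 0.44. Many medians and differences below moved with these pools, and the range over the 10 fits that each left out 1 pool is given beside the list medians.

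No gene passed the test for an odor change in enrichment. With limma and Benjamini-Hochberg adjustment at 0.05, 0 of 22206 probe sets were called (0%), and the smallest adjusted p was 0.9999. Without adjustment, 269 probe sets (1.21%) had p under 0.05, 146 with higher enrichment in odor pools (0.657%) and 123 with lower enrichment (0.554%). That share is smaller than the limit of 0.05 alone would give if no gene changed. The median difference over all probe sets was 0.009 on the log2 scale, and its SD over probe sets was 0.32. The half-width of the 95% confidence interval, which is not adjusted for the number of probe sets, had a median of 0.82. Differences of 1 log2 unit thus lay near the limit of what 5 pools against 5 could resolve for 1 probe set taken alone. The interval lay wholly within 1 log2 unit of 0 for 41.6% of probe sets and within 2 units for 96.6%. Adjusted over all probe sets, larger differences did not pass either: Olfr1153 at 1.46 and Olfr1202 at 2.72 had an adjusted limma p of 0.9999. Values below are thus differences with their intervals, and none of the genes named passed the adjustment.

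**Figure D1:**
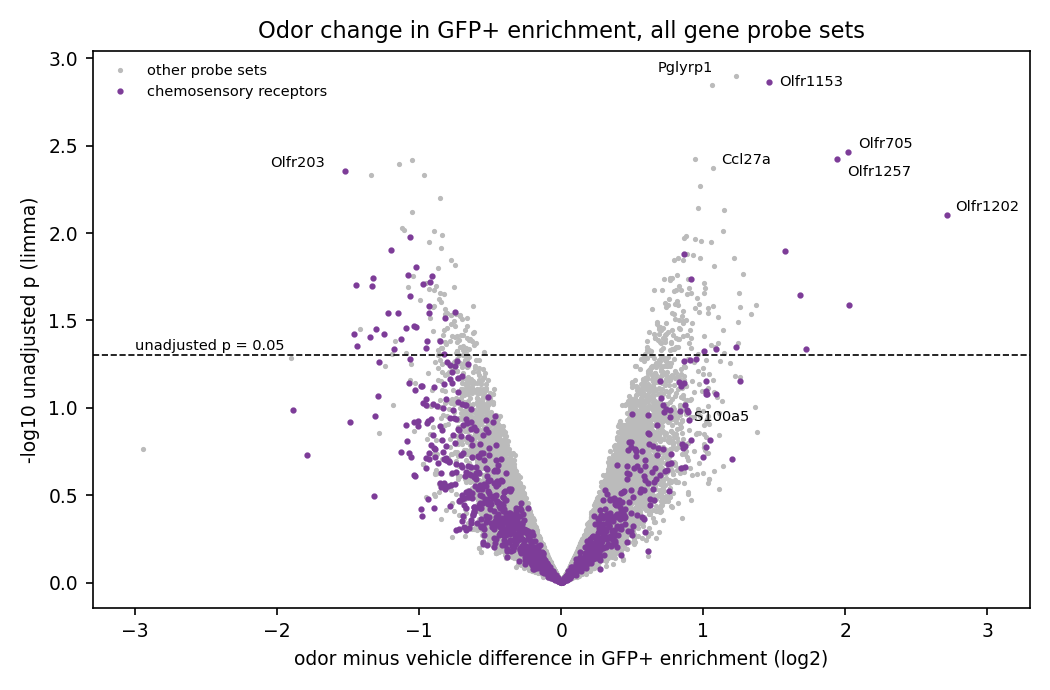
Odor minus vehicle difference in GFP+ enrichment (log2, x axis) against -log10 of the unadjusted limma p (y axis) for 22206 probe sets, with the 1094 chemosensory receptors in purple and a dashed line at an unadjusted p of 0.05. Olfr1202 has the highest difference (2.72), and 32 receptors lie above the line on the lower side against 13 on the higher side.

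S100a5, which drives the reporter, was higher in GFP+ than in GFP- cells in all 10 pools. Its enrichment was 0.29, 2.55, 1.95, 0.44 and 1.28 in vehicle pools 1 to 5. In odor pools 1 to 5 it was 2.48, 1.25, 2.44, 3.25 and 1.33. The groups overlapped, with vehicle pools 1 and 4 lowest and odor pool 4 highest. Mean enrichment was 1.30 ± 0.97 (SD, n = 5) in vehicle and 2.15 ± 0.85 (SD, n = 5) in odor pools, a difference of 0.85 (95% interval -0.25 to 1.94). The exact two-sided permutation test over the 252 regroupings of the 10 pools gave p = 0.1905, where the smallest p this design allows is 0.007937. Of the difference, 0.31 came from a higher signal in odor GFP+ cells and -0.53 from a lower one in odor GFP- cells. The signal in GFP+ cells ran from 16.25 to 17.08 in vehicle and from 16.66 to 17.40 in odor pools, and in GFP- cells from 14.53 to 16.07 and from 14.15 to 15.55.

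Omp enrichment was near 0 in odor pools, from 0.03 to 0.27, and ran from -0.43 to 1.19 in vehicle pools, where pool 1 was highest. Whether signals so near the top of the array range compressed the difference between fractions was not tested. Its odor difference was -0.10 (95% interval -0.81 to 0.60, exact two-sided permutation p = 0.8254), and without vehicle pool 1 it was 0.14.

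**Figure D2:**
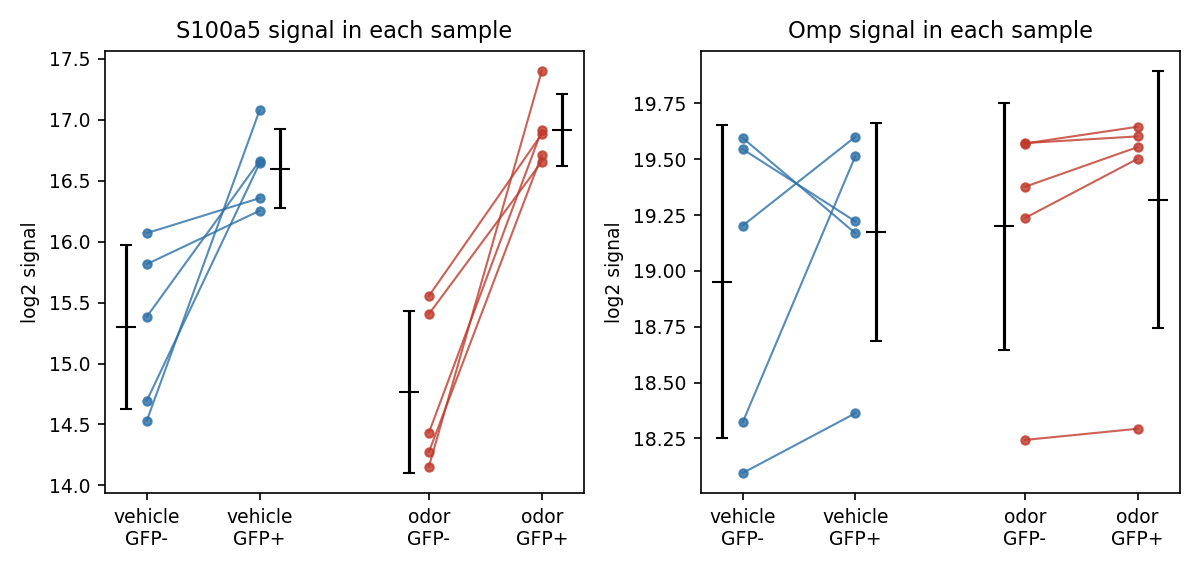
Log2 signal of S100a5 (left) and Omp (right) in each of the 20 samples, with lines joining GFP- and GFP+ cells of 1 pool and bars giving the mean and SD of 5 pools. S100a5 is higher in GFP+ cells in all 10 pools, while Omp lies between 18.10 and 19.65 in both fractions; the y axes do not start at 0.

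The S100a5 locus is shown because its activity set the sort. The 250 bases upstream of the S100a5 start in RefSeq (GRCm38.p6, chr3:90608272-90608521, + strand) were searched on both strands for 3 short motifs: TGACG, the core of the cAMP response element, CCCNNGGG, the core of sites for Ebf factors, and TAATTA, a homeodomain core of the kind found upstream of odorant receptor genes. None of these letters occurs in the window, whereas TGACG occurs in 17.8%, CCCNNGGG in 11.8% and TAATTA in 4.84% of all 32851 windows of the same length. Of the 14 receptors described next, 3 had an entry that does not begin at a coding start. The window of Olfr478 (chr7:108033968-108034217, - strand) is shown because it holds TAATTA, written in capitals, as do 17.8% of the 259 receptor windows that do not begin at a coding start. The windows of Olfr843 and Olfr1107 held none of the 3 motifs.
S100a5: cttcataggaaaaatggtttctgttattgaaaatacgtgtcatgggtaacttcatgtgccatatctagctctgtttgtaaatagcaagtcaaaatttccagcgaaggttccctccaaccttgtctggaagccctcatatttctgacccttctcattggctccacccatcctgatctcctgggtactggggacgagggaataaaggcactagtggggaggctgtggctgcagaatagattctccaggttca
Olfr478: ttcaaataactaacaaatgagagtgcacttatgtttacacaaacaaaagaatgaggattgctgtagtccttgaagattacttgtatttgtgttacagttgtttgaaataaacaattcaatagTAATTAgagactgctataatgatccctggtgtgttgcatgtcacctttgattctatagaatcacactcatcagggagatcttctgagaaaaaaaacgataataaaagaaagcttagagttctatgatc

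Chemosensory receptors spread more widely than other genes and, by their median, lay on the side of lower enrichment under odor. Their median difference was -0.13, against 0.01 for the other 21112 probe sets, and 676 of 1094 (61.8%) lay below 0, against 48.8% of all probe sets. Without adjustment, p was under 0.05 for 13 receptors that were higher (1.19%; 0.657% of all probe sets) and 32 that were lower (2.93%; 0.554% of all probe sets). With all pools in, these made up 4.11% of receptors, also a smaller share than the limit of 0.05 alone would give. The receptor counts moved with single pools: 9 to 34 receptors were higher and 17 to 65 lower when 1 pool was left out, and the receptor median was 0.0020 without vehicle pool 1 and 0.047 without vehicle pool 3, so that its sign rests on those pools. Receptors also varied more between pools than all probe sets did, with a median SD of 0.98 in vehicle and 0.67 in odor pools.

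With all pools in, the receptor median was below 0 at each level of enrichment. Among 402 receptors with a mean enrichment over all 10 pools above 1, the median difference was -0.08 and 232 lay below 0. Among the 483 from -1 to 1 it was -0.13, and among the 209 below -1 it was -0.24, with 152 below 0. Other probe sets with a mean enrichment below -1, which are those of GFP- cells, had a median of 0.24 (857 of 1169 above 0), the opposite side from receptors of that range. No receptor was on 1 side of 0 in all 5 vehicle pools and on the other in all 5 odor pools, and by group means 37 receptors crossed to GFP+ and 71 to GFP- under odor. For 1045 receptors (95.5%) the upper end of the interval lay below 2. Of the 938 receptors with a group mean above the highest background control median, 890 (94.9%) had such an interval. For these an odor increase in enrichment of 4-fold or more lay outside it, with each interval taken alone and not adjusted. As 1 group mean above background was enough, some of these receptors were near background in GFP+ cells. Olfr1507, for example, had GFP+ means of 5.80 in vehicle and 5.73 in odor pools. For such receptors the interval cannot show this, as their GFP+ signals stayed near background. Nor can it for the receptors without such a group mean, whose signals all stayed near background.

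Among the 8 receptors with higher enrichment and the smallest p, Olfr1202 had the largest difference. Its enrichment was 3.48, -1.75, -1.01, 0.046 and -1.002 in vehicle pools 1 to 5, and 0.95, 4.06, 2.36, 3.36 and 2.61 in odor pools 1 to 5. Vehicle pool 1 lay above 4 of the odor pools and the other vehicle pools below all of them. The difference was 2.72 ± 0.87 (SE; 95% interval 0.84 to 4.59, limma unadjusted p = 0.0079), and without vehicle pool 1 it was 3.60 with an adjusted p of 0.3477. In GFP+ cells the signals were 8.53, 6.86, 7.72, 6.5003 and 8.98 in vehicle and 7.97, 9.23, 6.71, 10.29 and 12.10 in odor pools. In GFP- cells they were 5.05, 8.61, 8.73, 6.45 and 9.98 in vehicle and 7.02, 5.17, 4.35, 6.93 and 9.50 in odor pools. The mean was thus higher in odor GFP+ cells by 1.54 and lower in odor GFP- cells, at -1.17, and 3 of the 20 signals were at or below the highest background control median.

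Olfr1153 had the smallest p of all receptors. Its enrichment was 1.93, 1.40, 2.29, 1.42 and 1.25 in vehicle pools and 2.55, 3.5005, 3.65, 2.27 and 3.64 in odor pools, so that the groups overlapped only through vehicle pool 3 and odor pool 4. The difference was 1.46 (95% interval 0.68 to 2.24, limma unadjusted p = 0.0014).

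Olfr705 was among the most GFP+-enriched receptors in both conditions. Its enrichment was 6.26, 3.87, 4.61, 3.59 and 3.05 in vehicle pools and 7.32, 6.87, 6.004, 5.93 and 5.34 in odor pools. Only vehicle pool 1 overlapped the odor range. The difference of 2.02 (95% interval 0.80 to 3.24) came mostly from GFP- cells, where the odor mean was lower, at -1.70, while the GFP+ mean was higher by 0.32.

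Olfr1257 had most of its difference in GFP+ cells. Its enrichment was 2.69, 1.31, 2.39, 2.19 and 0.42 in vehicle pools and 3.20, 5.03, 4.64, 3.47 and 2.37 in odor pools. The difference was 1.94 (95% interval 0.75 to 3.13) and the GFP+ part of it 1.46. In GFP+ cells the signal was 11.98 to 12.33 in vehicle and 13.04 to 13.85 in odor pools, with no overlap, while the GFP- signals overlapped. The GFP+ signals are part of the difference by which Olfr1257 was chosen, so their lack of overlap is no separate evidence.

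Olfr1281 likewise had its difference of 1.58 (95% interval 0.40 to 2.76) mostly in GFP+ cells (1.38), with enrichment from 1.06 to 3.56 in vehicle and from 2.13 to 4.66 in odor pools. Olfr1204 differed by 1.68 (95% interval 0.28 to 3.08), with enrichment from 0.93 to 3.14 in vehicle and from 1.82 to 5.46 in odor pools, and mostly in GFP- cells (-1.43). For Olfr478 the difference was 0.87 (95% interval 0.21 to 1.52) and for Olfr495 it was 0.91 (95% interval 0.18 to 1.64). Olfr495 was depleted from GFP+ cells throughout, at -3.88 to -2.92 in vehicle and -3.26 to -1.79 in odor pools, and its signals were at or below the highest background control median on 10 of the 20 arrays. Every one of the 8 overlapped between conditions.

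Over all 13 receptors that were higher at an unadjusted p under 0.05, the odor mean was higher in GFP+ cells for 13 and lower in GFP- cells for 12, with median differences of 0.78 and -0.48. These 2 parts are what the enrichment is made of and are no separate evidence.

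**Figure D3:**
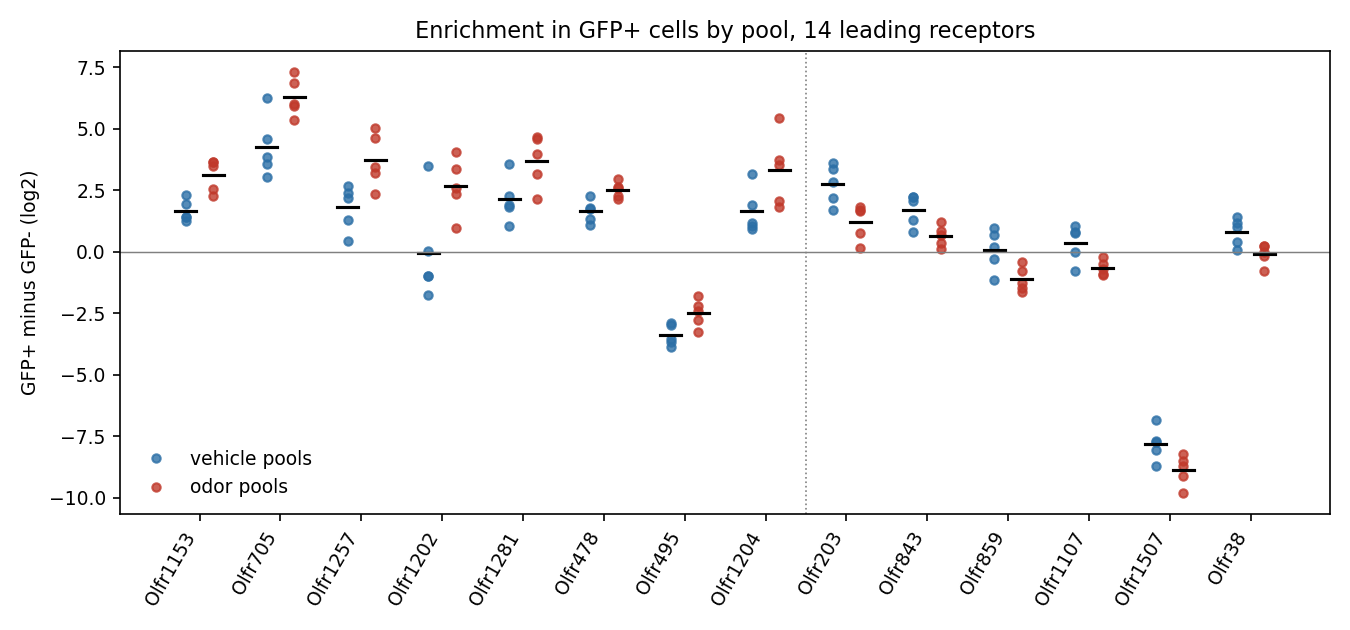
Enrichment (GFP+ minus GFP-, log2, y axis) of 14 receptors in each of 5 vehicle pools (blue) and 5 odor pools (red), with black bars at the means; the 8 left of the dotted line had a higher and the 6 right of it a lower odor mean. In each of the 14 the pools of both conditions overlap, as for Olfr1202, whose vehicle pool 1 (3.48) lies among the odor pools.

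Among receptors with lower enrichment under odor, Olfr203 had the smallest p. Its enrichment was 3.60, 2.19, 3.37, 1.72 and 2.82 in vehicle pools and 0.77, 0.13, 1.69, 1.82 and 1.66 in odor pools, which overlapped through 1 odor pool and 1 vehicle pool. The difference was -1.52 (95% interval -2.48 to -0.57, limma unadjusted p = 0.0044), of which 0.94 was a higher mean in odor GFP- cells.

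Olfr1507 was the most depleted of the named receptors, with enrichment from -8.74 to -6.85 in vehicle and from -9.81 to -8.25 in odor pools and a difference of -1.08 (95% interval -1.93 to -0.22). Its GFP+ signals were near background, from 4.71 to 7.29, and its GFP- signals ran from 12.88 to 15.23. Olfr843 differed by -1.06 (95% interval -1.83 to -0.29), Olfr859 by -1.20 (-2.09 to -0.30), Olfr1107 by -1.02 (-1.82 to -0.23) and Olfr38 by -0.91 (-1.63 to -0.19), and in each the conditions overlapped. Olfr1107 and Olfr859 had a vehicle mean above 0 (0.36 and 0.07) and an odor mean below it (-0.66 and -1.13).

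In 2 receptors, chosen after their values were seen, all odor pools lay below all vehicle pools (0.131% of all probe sets do). These were Olfr1116, with mean enrichment of 1.32 in vehicle and 0.39 in odor pools, and Olfr1338, with 1.62 and 0.64. No receptor had all odor pools above all vehicle pools (0.149% of all probe sets do).

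Older receptor names group receptors by sequence similarity. Of the 8 leading receptors, Olfr1202, Olfr1204 and Olfr1257 belong to 1 family of 9 measured members, MOR232. The other 6 members ran from -0.94 (Olfr1258) to 0.22 (Olfr1259), and the family's median was 0.10. Olfr478 and Olfr495 are both of family MOR204, whose 31 members had a median of 0.09. On the lower side, where 0.554% of all probe sets and 2.93% of receptors had an unadjusted p under 0.05, 4 families had more than 1 such member. These were 3 of 9 in MOR185 (Olfr1045, Olfr1057 and Olfr1062), 2 of 5 in MOR146 (Olfr859 and Olfr58), 2 of 10 in MOR182 (Olfr203 and Olfr209) and 2 of 11 in MOR31 (Olfr649 and Olfr691). Similar receptors can share hybridisation to a probe set, so members of a family are not independent.

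Chromosome 2 carries 282 of the receptors (25.8%), and held 7 of the 13 higher and 9 of the 32 lower ones at an unadjusted p under 0.05. Of all receptors 1.19% were higher and 2.93% lower at that limit, and of all probe sets 0.657% and 0.554%. The genes next to Olfr1202 did not share its difference as a block: Olfr1201 was at -0.08 and Olfr1205 at -0.46, whereas Olfr1204 was at 1.68 and Olfr1206 at 1.02. Olfr1186 on the same chromosome was at 2.03 (95% interval 0.29 to 3.77). The median over chromosome 2 was -0.12, close to the median of all receptors.

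**Figure D4:**
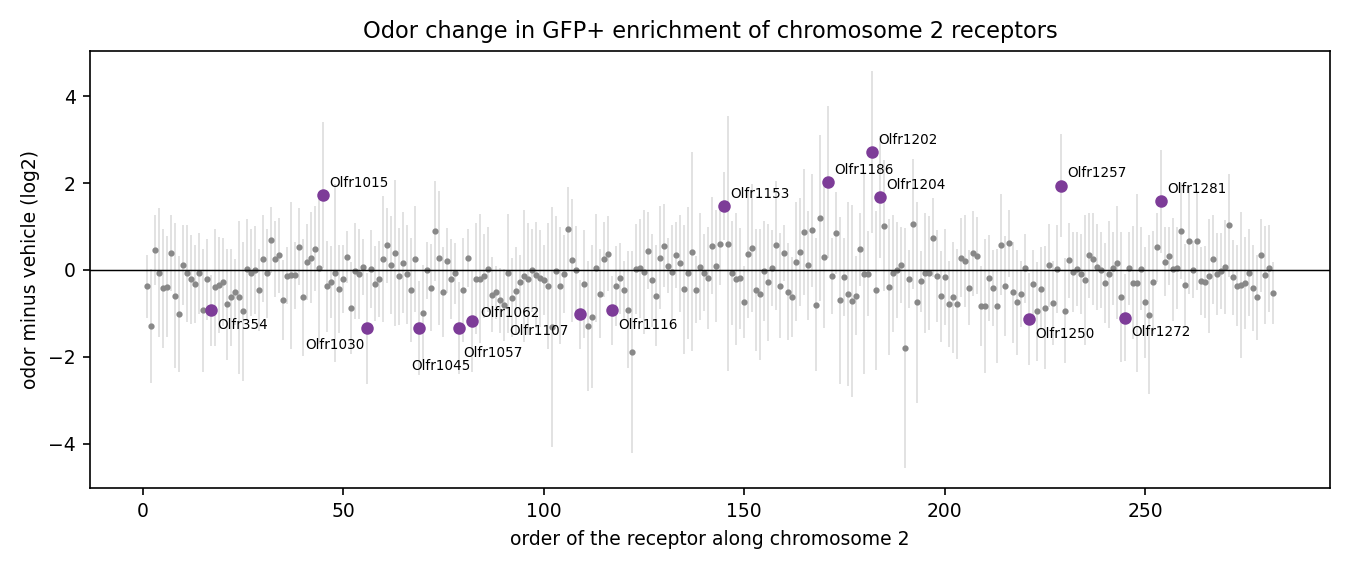
Odor minus vehicle difference in enrichment (log2, y axis) of 282 receptors in their order along chromosome 2 (x axis), with grey lines for 95% intervals and purple points at an unadjusted limma p under 0.05. The named points on the lower side lie before Olfr1153 in the order, except Olfr1250 and Olfr1272. Those on the higher side lie from Olfr1153 onward, except Olfr1015. This split was seen after the values were known and was not tested. Olfr1202 and Olfr1204 are close to each other on the higher side, and Olfr1045, Olfr1057 and Olfr1062 lie on the lower side.

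The 14 trace amine-associated receptors, which bind volatile amines, had a median of 0.06 (-0.13 to 0.38 when 1 pool was left out), and 9 lay above 0. In limma's fit only Taar7a had an unadjusted p under 0.05 (0.0471), with a difference of 1.00 (95% interval 0.01 to 1.99). Its enrichment was -2.51 to -1.34 in vehicle and -2.27 to 0.27 in odor pools, which overlapped. Taar5 was at 0.49 with all 20 signals at or below the highest background control median, and Taar7f at 0.38.

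In the transduction chain, which odorant receptor neurons share, no gene had an unadjusted p under 0.05. Of 11 genes for the G protein, cyclase, channel subunits and chloride transport, 3 lay above 0 and the median was -0.05 (-0.28 to 0.15 when 1 pool was left out). Gng13, a G protein gamma subunit, was at 0.40 (95% interval -0.64 to 1.45; 0.038 without vehicle pool 1), and the channel subunit Cngb1 at -0.37 (-1.41 to 0.66). Of 7 genes that end or adapt the response the median was 0.07 (-0.23 to 0.40 when 1 pool was left out), and of 12 genes for receptor trafficking and mature neurons it was -0.11, with the chaperone Rtp1 at -0.24. Without vehicle pool 1 the median of the trafficking and mature neuron genes was 0.23, and without vehicle pool 2 it was -0.36.

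Of 7 genes that activity raises in these neurons, 2 lay above 0. The adhesion and guidance gene Sema7a was at -0.68 (95% interval -2.30 to 0.94) and Pcp4l1 at -0.32, while S100a5 was at 0.85. The median of the 7 was -0.14, but 0.49 without vehicle pool 1 and -0.51 without vehicle pool 2, so its sign rests on single pools. Sema7a enrichment in vehicle pools was 5.24, 0.55, 1.91, 0.78 and 0.66 and in odor pools 1.25, 1.80, 0.99, 1.04 and 0.66. The high vehicle pool was number 1, without which the Sema7a difference was 0.18. Of 2 measured genes that activity lowers, the guidance receptor Epha5 was at -0.40 and the adhesion molecule Kirrel3 at 0.01. The 19 axon guidance genes had a median of -0.27, with 13 below 0 and 0 at an unadjusted p under 0.05. Their median too changed sign with 1 pool, to 0.28 without vehicle pool 1, and was -0.51 without vehicle pool 2. The 15 regulators of receptor choice had -0.01 (-0.37 to 0.32 when 1 pool was left out), with the demethylase Kdm1a at -0.64 (-0.11 without vehicle pool 1) and the kinase Eif2ak3 at -0.41. The 18 immediate early genes had 0.23 (0.025 to 0.46 when 1 pool was left out), with Junb at 0.84 (95% interval -0.28 to 1.96) and Egr1 at 0.50, and the 9 heat shock genes 0.003 (-0.22 to 0.21).

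With all pools in, the largest list medians were those of white blood cells and of ribosomes, but without vehicle pool 1 the activity-raised (0.49) and sustentacular (0.47) medians exceeded the ribosomal one (0.26). So did those of immediate early (0.46), response termination (0.40), immature neuron (0.36), receptor choice (0.32) and axon guidance genes (0.28). Of the 1169 non-receptor probe sets with a mean enrichment below -1, 857 lay above 0. Their median was 0.24, and 2.48% of them were higher at an unadjusted p under 0.05. Of 17 neutrophil genes, which as a list were also depleted from GFP+ cells, 15 lay above 0, where 11367 of all 22206 probe sets did. Their median was 0.57 (0.42 to 0.82 when 1 pool was left out), and 3 of them, where 0.657% of all probe sets were higher at that limit, had an unadjusted p under 0.05: Pglyrp1, a peptidoglycan-binding protein of neutrophil granules, at 1.23 (95% interval 0.58 to 1.88), Camp, an antimicrobial peptide, at 1.24, and Retnlg, a resistin-like secreted protein, at 1.01. Pglyrp1 enrichment was -5.04, -5.78, -5.13, -5.74 and -5.24 in vehicle pools and -4.10, -3.54, -4.55, -4.57 and -4.02 in odor pools. Its signal was thus far higher in GFP- cells in every pool, and its pools did not overlap between conditions. All odor pools lay above all vehicle pools in 0.149% of all probe sets. As Pglyrp1 was named for its small p, this lack of overlap is no separate evidence. Its GFP+ means, 5.65 in vehicle and 6.10 in odor pools, lay below the highest background control median. The mean signal of the 17 genes was 11.67 to 12.60 in vehicle and 11.42 to 12.29 in odor GFP- cells, and 5.22 to 5.80 and 5.33 to 5.67 in GFP+ cells, where the highest background control median was 6.34. The odor mean in GFP- cells differed from the vehicle mean by -0.78 for Pglyrp1, -1.13 for Camp and -1.01 for Retnlg, and the part of the share of neutrophils in GFP- cells in these values was not tested. The 16 macrophage, monocyte and lymphocyte genes had a median of 0.44, which was 0.26 without vehicle pool 5 and 0.80 without odor pool 5, and 0 at an unadjusted p under 0.05, with the T cell genes Cd3g at 0.69 and Cd3e at 0.68. Their mean signal in GFP- cells was 8.34 to 9.93 in vehicle and 7.93 to 10.05 in odor pools.

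Of 61 cytosolic ribosomal protein genes 56 lay above 0, with a median of 0.39 (0.24 to 0.51 when 1 pool was left out). The 4 with a higher value at an unadjusted p under 0.05, against 0.657% of all probe sets, included Rps21 at 1.26 and Rpl10a at 0.84. Rps21 enrichment was -3.32, -0.87, -1.70, -1.27 and -0.33 in vehicle and 0.17, -0.20, -0.11, 0.17 and -1.24 in odor pools. Vehicle pool 1 was lowest, and odor pool 5 lay among the vehicle pools. The 85 oxidative phosphorylation genes had a median of 0.34 with 71 above 0, and 0 had an unadjusted p under 0.05. Without vehicle pool 1 that median was 0.17.

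The medians for support, gland and basal cells of the mucosa were 0.07 for sustentacular cells, 0.07 for Bowman glands, 0.13 for microvillar cells, -0.05 for horizontal basal cells and 0.05 for globose basal and cycling cells. The sustentacular median was 0.47 without vehicle pool 1 and -0.15 without vehicle pool 3, and when 1 pool was left out the others ran from -0.15 to 0.21 (Bowman), -0.057 to 0.34 (microvillar), -0.15 to 0.12 (horizontal basal) and -0.17 to 0.31 (globose basal and cycling). Of the 12 Bowman gland genes 7 lay above 0 and 5 below. Scgb1c1, a secretoglobin, was at 1.34 (95% interval 0.16 to 2.52) and the odorant-binding protein Obp2a at 1.00. Aqp5 was below 0 (-0.61 to -0.14 when 1 pool was left out). Scgb1c1 enrichment was -3.33, -2.002, -3.81, -2.19 and -1.89 in vehicle and -0.91, -0.06, -1.35, -1.13 and -3.09 in odor pools, where pool 5 lay among the vehicle pools. Of the 10 globose basal and cycling cell genes 5 lay above 0 and 5 below, where Lgr5 was (-0.68 to -0.28 when 1 pool was left out). Top2a, a DNA topoisomerase, was at 0.78 with all odor pools above all vehicle pools (0.149% of all probe sets do). Of its 20 signals 15 were at or below the highest background control median. The 15 immature neuron genes had a median of -0.05 (-0.23 to 0.36 when 1 pool was left out), with Stmn2 at 0.52 and Dcx at -0.49 (-0.044 without vehicle pool 1). The 15 genes of xenobiotic and oxidant responses had 0.03 (-0.13 to 0.095), with Gclm at -0.61 (-0.032 without vehicle pool 1) and Cyp1b1 at 0.34. Inflammation genes had a median of 0.23 (0.12 to 0.37 when 1 pool was left out), with Tnf at 0.84 and Il1b at 0.62, and interferon genes 0.32 (0.088 to 0.37), with Isg15 at 0.45, with many of these signals near background. The 319 vomeronasal receptors, of which 245 had no signal above the highest background control median, had 2 higher and 9 lower at an unadjusted p under 0.05 (0.657% and 0.554% of all probe sets) and a median of 0.01 (-0.22 to 0.20 when 1 pool was left out).

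**Figure D5:**
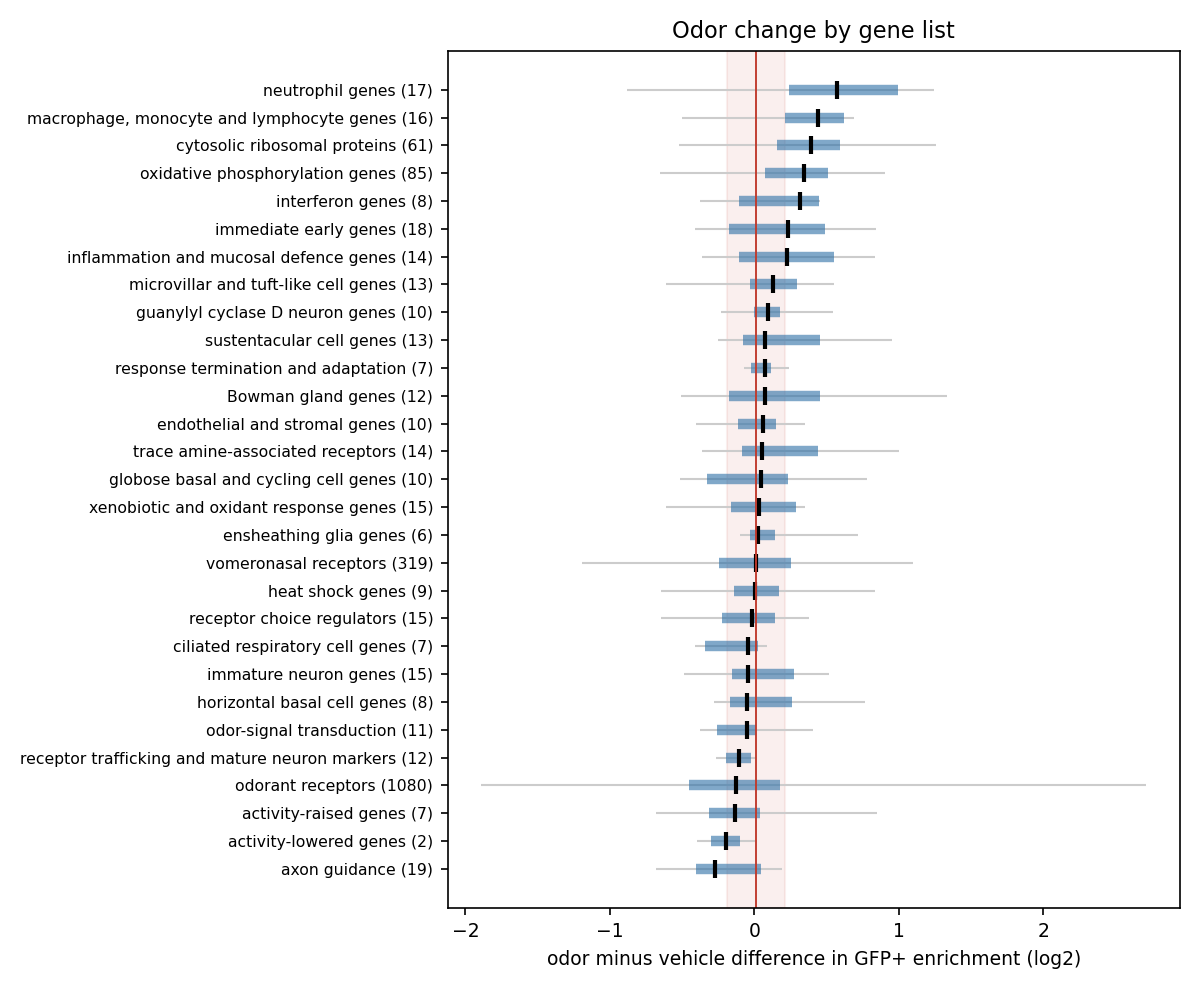
Odor minus vehicle difference in enrichment (log2, x axis) for 29 gene lists with their number of measured genes; black ticks are medians, blue bars run from the 25th to the 75th percentile, grey lines span all members, and the red line and band give the median and quartiles of all probe sets. Neutrophil genes have the highest median (0.57) and axon guidance genes the lowest (-0.27), though the latter is 0.28 without vehicle pool 1.

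Genes outside receptors and the lists are given where at least 1 group mean was above the highest background control median. Among these, the genes with the smallest p and higher enrichment under odor were led by Nckap5l (0.94) and Ccl27a, a chemokine (1.07). Ccl27a enrichment was -0.04, 0.13, -0.28, -0.32 and 0.56 in vehicle and 0.95, 1.81, 0.97, 1.15 and 0.52 in odor pools, so that only number 5 overlapped. Nckap5l did not overlap (0.149% of all probe sets had all odor pools above all vehicle pools), but 17 of its 20 signals were at or below the highest background control median. Only its vehicle GFP- mean was above that median, at 6.34, and this mean is part of its difference. Dennd2d (0.98) and Nop10, a component of box H/ACA ribonucleoproteins (1.15), followed, with Cyp4f16, a cytochrome P450 (1.06), Krtcap2, an oligosaccharyltransferase subunit (0.93), and Gpr65, a proton-sensing receptor of leukocytes (1.22).

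On the lower side were Prkdc, the catalytic subunit of DNA-dependent protein kinase (-0.99), Slf1 (-0.85), Pdcd7 (-0.62), Josd1 (-0.90), Cpe, a peptide-processing carboxypeptidase (-0.93), and Slc25a40, a mitochondrial carrier (-0.75). Pdcd7 enrichment was 0.66, 0.70, 0.46, 0.49 and 0.15 in vehicle and -0.28, -0.12, -0.17, 0.12 and -0.21 in odor pools. All vehicle pools lay above all odor pools (0.131% of all probe sets do). Pdcd7 was named for its small p, so this is no separate evidence. For Prkdc vehicle pool 1, at 2.21, lay above the other vehicle pools, which ran from -0.05 to 0.78.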

How the data were processed

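RNA of 20 sorted samples was measured on Clariom S arrays. Each probe set has 1 log2 signal per array as deposited by the authors, and the submitters' processing notes name Affymetrix Expression Console. How that program corrected, normalized and summarized the probes is not given in the sources used here. They were used without further normalization. Of 28846 rows 6640 were controls and 22206 gene probe sets, with no filter; 19572 had 1 gene symbol and 2634 none, and all 19572 were matched by Entrez ID to RefSeq (GRCm38.p6), used for names, older receptor names (1070 receptors) and neighbours. The 23 background control rows gave each array's background median. The fit was limma 3.58.1 (R 4.3.3) on the 10 differences, tested on simulated data. Lists used 1 probe set per gene, that with the highest mean. Precision is limited by the 5 pools per condition.

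The genes and the 30 lists were chosen with earlier results of these data known. Named genes are S100a5 and Omp, the 8 higher and 6 lower receptors and other genes with the smallest p (other genes with 1 group mean above background), and up to 3 members of each list with the smallest p, though not all of these are described. The nearest receptor by protein sequence was not determined. Both fractions with the same condition and number were taken as 1 pool, and p-values measure the spread between pools. Nothing in the labels says that odor and vehicle pools of 1 number belong together. Alternatives were normalization, centring, a filter on dim probe sets, a floor at background, variance models, array weights, the number 5 as a term or left out, blocks, and leaving out each pool; leaving out vehicle pools 1 and 2 together was chosen after seeing the data.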

Additional observations from a re-analysis of the deposited data

Results flagged for a closer look

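In 10 of 222 groups of 5 pools (111 named genes in 2 conditions), 1 pool lay far from the other 4 by Dixon's criterion at 95%, and chance alone gives about 1 in 20 groups. Among vehicle pools, number 1 was far from the others for Kdm1a (2.62; others -0.37 to 0.40), Cldn5 (-1.18; others -0.003 to 0.24) and Vmn1r51 (0.077; others 0.84 to 1.07). Vehicle pool 2 was so for Kirrel3 (-0.63; others -0.17 to -0.08) and Ccl3 (-1.07; others -3.74 to -3.11), and vehicle pool 5 for Ms4a8a (-1.30; others -0.63 to -0.50). Among odor pools, number 4 was far from the others for Cpe (-1.34; others 0.03 to 0.58). Odor pool 5 was so for Hspa1b (-0.57; others -2.71 to -2.28), Cd3e (-2.99; others -1.32 to -0.68) and Rps21 (-1.24; others -0.20 to 0.17). All values are enrichments on the log2 scale.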

How the results depend on the processing

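With limma, 0 probe sets were called under every alternative, including the fit with the replicate number as a replicate block (0). The deviations of same-numbered pools correlated at -0.31, -0.48, 0.16, -0.14 and 0.21. With both signs among them, these values do not settle whether the numbers pair the pools. The smallest adjusted limma p under any alternative was 0.3477, without vehicle pool 1. The number of probe sets with an unadjusted p under 0.05 (269) was 417 with quantile normalization, 174 without the dimmest 25%, 792 with array weights and 573 without vehicle pools 1 and 2. Leaving out 1 pool gave 178 (without odor pool 4) to 810 (without vehicle pool 1), and 474 without vehicle pool 2. The leading receptors themselves changed: of the 8 higher, 4 were again among the 8 without vehicle pool 3 or odor pool 5, and of the 6 lower, 1 was without odor pool 2. The floor at background shifted the median over all probe sets to -0.14 from 0.009. S100a5 ran from 0.57 to 1.16 when 1 pool was left out and from 0.75 to 1.05 otherwise.

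Some differences changed sign. Leaving out 1 pool gave ranges of -0.26 to 0.14 (Omp), -0.47 to 0.087 (Ric8b), -0.11 to 0.36 (Camk4), -0.28 to 0.40 (Camk2d), -0.56 to 0.19 (Rtp1), -0.46 to 0.17 (Faim2), -0.73 to 0.40 (Ebf2), -0.9996 to 0.18 (Sema7a), -0.11 to 0.16 (Kirrel3), -0.060 to 0.98 (Ifit3), -0.059 to 0.49 (Fabp7), -0.23 to 0.0026 (Sox10) and -0.013 to 0.34 (Cldn5). The pool whose omission turned the sign was vehicle pool 1 for all of these but Kirrel3 and Sox10, and for Fabp7 odor pool 2 as well. Without vehicle pools 1 and 2 the values were 0.040 (Omp), 0.030 (Ric8b), -0.18 (Camk4), 0.28 (Camk2d), 0.089 (Faim2), 0.0022 (Ebf2), 0.033 (Sema7a), -0.082 (Kirrel3), -0.036 (Cldn5) and 0.0019 (Cfap43). With array weights they were -0.19 (Camk4), 0.27 (Camk2d), 0.084 (Faim2), -0.054 (Kirrel3), 0.050 (Efna5), -0.25 (Hsph1), -0.085 (Fabp7) and -0.029 (Cldn5). With the floor at background they were -0.14 (Grk3), -0.17 (Camk4, Npas4, Isg15, Gnat3, Trp63, Cldn5, Cyp1b1 and Taar5), -0.0018 (Cd3g), -0.081 (Nkg7), -0.19 (Rsad2), -0.32 (Ms4a8a) and -0.13 (Erbb3). Quantile normalization gave 0.039 (Camk2d) and -0.012 (Kirrel3), centring -0.026 (Kirrel3), and leaving out both pools numbered 5 -0.032 (Ms4a8a). The cause of these changes was not tested. With 5 pools a condition and many signals near background, most differences below about 1 log2 unit could not be resolved for 1 gene alone. Larger ones did not pass the adjustment either.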
